A study of Homo sapiens with 4 samples.

Results

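The MYC family and MAX network are basic helix-loop-helix leucine zipper proteins that compete for shared dimer partners and DNA sites. The members were the rows of the authors' gene table whose symbol was MYC, MYCN, MAX, MXD1, MXD3, MXD4, MXI1, MNT, MGA or MLX, which gave 10 of 23368 entries. RNA had been sequenced from 4 human precursor-B acute lymphoblastic leukemia lines, 1 library per line. The t(4;11) rearrangement, a fusion of the MLL (KMT2A) gene to AFF1, is present in RS4;11 and in SEM, which are called the translocated lines here. The controls were NALM6 and REH, both without it. No line received a drug or genetic change, and all were kept in the same serum-containing medium. Each line is a single established culture, so the groups compare pairs of different leukemias. As general background, REH is known to carry an ETV6-RUNX1 fusion and NALM6 a DUX4 rearrangement, and group differences cannot be told apart from such differences between lines.

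MYC binds MAX, and the pair activates genes through the E-box, a short palindromic DNA site, promoting growth, ribosome production and division. The MXD proteins (MXI1 among them) and MNT also bind MAX at E-boxes, where they recruit SIN3 and histone deacetylases and repress transcription. MLX is the parallel partner of the glucose-sensing factors MLXIP (MondoA) and MLXIPL (ChREBP), and MGA binds MAX inside a variant polycomb complex, PRC1.6. In mouse bone marrow, MYC is high in large dividing pre-B cells and declines as they differentiate.

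The DNA sites of the network occur beside some of its own genes. The window from 250 bases before to 50 after the annotated start (RefSeq, GRCh38.p14) was available for 9 of the 10 members, all but MYC. CACGTG, the E-box preferred by MYC and MAX, reads the same on both strands. It was found for 3 of the 9, MLX, MNT and MXD4. The share was 8.77% of all genes with a window and 12.5% of the genes tested below that have one. TXNIP, a glucose-uptake inhibitor induced by MLXIP and MLX, holds a pair of CACG cores in the layout of a carbohydrate response element. That spaced motif, CACGNNNNNNNCACG searched on both strands, was in 0.609% of all windows. The stretches are shown to place these sites, with the E-box, or both CACG cores for TXNIP, in capitals. TXNIP lies on chromosome 1.
MLX, chr17:42567020-42567085, plus strand: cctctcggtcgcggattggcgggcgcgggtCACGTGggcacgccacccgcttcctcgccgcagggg
MNT, chr17:2401218-2401283, minus strand: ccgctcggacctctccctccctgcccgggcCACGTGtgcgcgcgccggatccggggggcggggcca
MXD4, chr4:2262312-2262359, minus strand: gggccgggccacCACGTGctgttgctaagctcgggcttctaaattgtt
TXNIP, chr1:145996623-145996697, minus strand: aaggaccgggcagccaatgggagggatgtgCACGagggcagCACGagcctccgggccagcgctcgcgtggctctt
The first capital lies 50 bases upstream of the start in MLX, 193 in MNT, 238 in MXD4 and 88 in TXNIP. A match describes letters only, and no binding was measured.

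Summed gene counts ranged from 33620574 (SEM) to 84212986 (REH). Levels are given as CPM, each count scaled to its library's sum. Where values come in pairs, those of the translocated lines are RS4;11 then SEM and those of the controls NALM6 then REH. In bulk RNA, fewer cells expressing a gene and less RNA per cell cannot be told apart. Of 12 fixed B-precursor markers, 6 were lower and 0 higher in both translocated lines (28.3% and 19.0% of all genes tested). The summed level of all 12 was 2469 and 1307 CPM in the translocated lines versus 6062 and 3947 CPM in the controls. Much of that gap came from CD24 and TCL1A. CD24 had 268 and 6.01 CPM in the translocated lines versus 1895 and 1132 CPM in the controls. TCL1A had 38.4 and 88.7 CPM versus 1568 and 0.665 CPM. PAX5, EBF1, CD79A and CD22 were read in every line, with 105 CPM for CD79A in SEM the lowest of their values. Of these, CD22 was lower in both translocated lines, at 167 and 141 CPM versus 245 and 314 CPM in the controls. BLNK, a linker of B-cell receptor signals, had 6.82 and 0.178 CPM in the translocated lines versus 89.5 and 259.7 CPM in the controls. CD79B, a receptor signalling chain, had 122 and 9.73 CPM in the translocated lines versus 305 and 406 CPM in the controls, and VPREB3 had 21.7 and 1.16 CPM versus 69.9 and 179.9 CPM. The authors' deposited tables called 2 of the 12 lower with DESeq and 5 with Cuffdiff (1.56% and 2.34% of all genes called in either direction). The 5 included TCL1A, whose groups overlapped. Whether the lower B-precursor markers have a part in the differences between the groups given below was not tested.

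The 10 T and NK cell markers summed to 26.3 and 16.1 CPM in the translocated lines versus 23.1 and 3.95 CPM in the controls, with CD3D, CD3E and CD3G at 0 counts in every line. Within that list NKG7 had 26.1 and 11.1 CPM in the translocated lines versus 0.914 and 1.5 CPM in the controls, and CD4 had 0 and 0.0297 CPM versus 22.0 and 2.23 CPM. The 10 myeloid markers summed to 17.9 and 50.1 CPM in the translocated lines versus 17.0 and 55.1 CPM in the controls. Of these, CSF1R had 10.0 and 33.3 CPM in the translocated lines versus 0.0892 and 5.27 CPM in the controls, and MPO had 0.347 and 0.238 CPM versus 0.134 and 34.2 CPM. The 8 erythroid and megakaryocyte markers summed to between 2.54 and 24.8 CPM per line, and the 8 stromal and epithelial markers to between 0.446 and 19.4 CPM. GP9, from the former list, had 4.14 and 1.64 CPM in the translocated lines versus 0.0892 and 0.249 CPM in the controls. PECAM1, from the latter, had 1.20 and 15.2 CPM versus 0.134 and 0.154 CPM. In each list 3 genes were tested and 1 was higher in both translocated lines (19.0% of all genes). Lower were 1 and 0 (28.3%).

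Between lines with and without t(4;11), MXI1 and MXD3 differed most among the members, and whether they were called depended on the test. With edgeR's quasi-likelihood test, 0 of the 9 members that passed the low-count filter had an adjusted p under 0.05, as did 0 of all 13844 genes tested (0.0%). At an unadjusted p under 0.05, 2 of the 9 members were called, both lower in the translocated lines, where 5.87% of all genes were called lower and 6.18% higher. These were MXI1 and MXD3. DESeq2 called the same pair and no other member (11.2% of all genes, 1586 of them), and edgeR's exact test called 0 members (3.19%, 441 genes). The authors' deposited DESeq table called 0 of 10 members (1.56% of genes) and none of the 9 tested in their deposited Cuffdiff results passed (2.34%). In CPM the groups did not overlap for 5 of the 10 members, 3 lower (MXI1, MXD3, MAX) and 2 higher (MLX, MXD4). Among all tested genes the groups did not overlap for 47.3% (19.0% higher, 28.3% lower), a share close to that of the members.

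**Figure D1:**
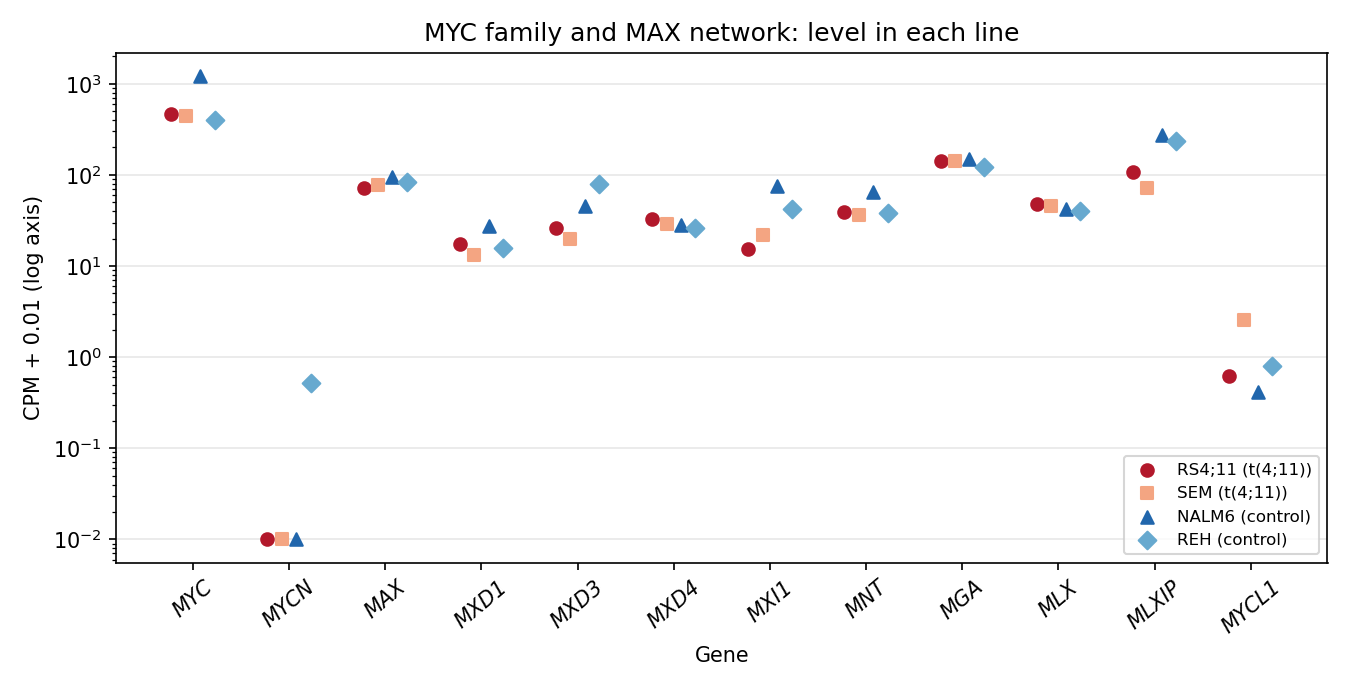
Level of each member, with MYCL1 and MLXIP beside them, in the 4 lines (CPM + 0.01 on a log axis, 1 point per line, t(4;11) lines in red shades and controls in blue shades). MYC stands at 1212 CPM in NALM6 and between 395 and 462 CPM in the other lines, while MAX, MGA, MLX and MXD4 lie close together in all 4.

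MYC, the activator of the network, stood apart in 1 control line. It had 462 CPM (RS4;11) and 438 CPM (SEM), compared with 1212 CPM (NALM6) and 395 CPM (REH). Its level in REH was below both translocated lines and its level in NALM6 far above them, so the groups overlapped. NALM6 exceeded REH 3.07-fold (95% exact interval of the count ratio 3.02 to 3.11, which covers counting error only), whereas RS4;11 exceeded SEM 1.06-fold (1.03 to 1.08). MYC was the 48th most counted gene in NALM6, the 313th in RS4;11, the 330th in SEM and the 370th in REH. The means were 450.0 ± 17.1 CPM with t(4;11) and 803 ± 577 CPM in controls (SD, n = 2 each). The log2 fold change was -0.73 (SE 0.60, edgeR adjusted p = 0.667), and it was 0.29 without NALM6. MYC lies on chromosome 8 at 128748315 to 128753680 (hg19).

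The noncoding gene PVT1, which neighbours MYC and is known to be gained with it in cancers, did not share this pattern. It had 12.2 and 5.23 CPM in the translocated lines versus 13.6 and 11.6 CPM in the controls. NALM6 exceeded REH 1.18-fold for PVT1 (1.06 to 1.30). Copy number was not measured, and whether it has a part in the MYC level of NALM6 was not tested. Of 6 tested genes around MYC, 2 had an unadjusted edgeR p under 0.05, both higher with t(4;11) (6.18% of all genes were higher by that p), and 0 passed edgeR's adjustment. FAM84B had 4.63 and 17.5 CPM in the translocated lines, against 0 counts in NALM6 and 1 count in REH, and was called in the authors' deposited DESeq table (adjusted p = 0.0337) but not in their Cuffdiff table (q = 0.843). DESeq2 gave it an adjusted p of 1.04e-07 and the exact test of edgeR 9.46e-05. FAM49B had 186 and 159 CPM in the translocated lines versus 138 and 116 CPM in the controls (edgeR adjusted p = 0.414, DESeq2 0.143).

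The MYC paralogs contributed few reads. MYCN, the paralog of embryonic and neural progenitors, had 43 counts in REH (0.511 CPM) and 0 counts in RS4;11, SEM and NALM6. A count of 0 allows up to 0.0578 CPM in RS4;11, 0.0892 CPM in SEM and 0.0669 CPM in NALM6. MYCN did not pass the filter and has no edgeR test. Its antisense gene MYCNOS had 1 count in REH and 0 elsewhere; the libraries are not described as stranded, so reads of the pair cannot be told apart. MYCL1 (now MYCL), the remaining paralog, had 0.617 and 2.56 CPM in the translocated lines versus 0.401 and 0.796 CPM in the controls. Its groups overlapped (on the log2 scale a change of 1.49, SE 1.01, edgeR adjusted p = 0.609), and the value was 0.17 without SEM.

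MAX, the obligate partner, varied little. It had 71.6 CPM (RS4;11) and 76.6 CPM (SEM), compared with 94.8 CPM (NALM6) and 82.8 CPM (REH). Both translocated lines were below both controls, by a log2 fold change of only -0.16 (SE 0.17, edgeR adjusted p = 0.755). MYC reads per MAX read numbered 6.45 in RS4;11 and 5.71 in SEM, against 12.8 in NALM6 and 4.77 in REH. The Cuffdiff span of MAX (chromosome 14, 65381079 to 65569227) also holds 7 other annotated genes, FNTB and RAB15 among them, which leaves its level uncertain.

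MXI1 and MXD3 were the members that differed most between the groups. MXI1, a MAX-binding repressor named for its interaction with MAX, had 15.2 CPM (RS4;11) and 22.0 CPM (SEM), compared with 75.0 CPM (NALM6) and 42.1 CPM (REH). Both translocated lines lay below both controls, with NALM6 the highest. Means were 18.6 ± 4.78 CPM with t(4;11) and 58.6 ± 23.2 CPM in controls (SD, n = 2 each), 3.14-fold lower in the translocated lines. The log2 fold change was -1.55 (SE 0.41, unadjusted p = 0.0217, edgeR adjusted p = 0.370), and DESeq2 gave an adjusted p of 0.0201. In the authors' deposited tables the adjusted p was 0.599 with DESeq and q was 0.332 with Cuffdiff. MXI1 spans 111967363 to 112047123 on chromosome 10 (hg19), with no other gene in its Cuffdiff span.

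MXD3, a repressor of the same type that is known from proliferating progenitors in mice, was read at 26.3 CPM (RS4;11) and 19.6 CPM (SEM), compared with 46.0 CPM (NALM6) and 79.4 CPM (REH). Again both translocated lines lay below both controls, here with REH the highest instead of NALM6. Means were 23.0 ± 4.74 CPM with t(4;11) and 62.7 ± 23.6 CPM in controls (SD, n = 2 each), 2.73-fold lower in the translocated lines. The log2 fold change was -1.35 (SE 0.39, unadjusted p = 0.0291, edgeR adjusted p = 0.382), and DESeq2 gave an adjusted p of 0.0347. The authors' deposited tables gave an adjusted p of 0.594 with DESeq and a q of 0.819 with Cuffdiff. The Cuffdiff log2 fold change was smaller, at -0.995 against -1.34 with the authors' DESeq. MXD3 shares its Cuffdiff span on chromosome 5 (176730835 to 176739292) with PRELID1, a mitochondrial lipid transfer gene that had 42.4 and 47.5 CPM in the translocated lines versus 44.8 and 16.4 CPM in the controls. The shared span leaves the level of MXD3 uncertain.

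**Figure D2:**
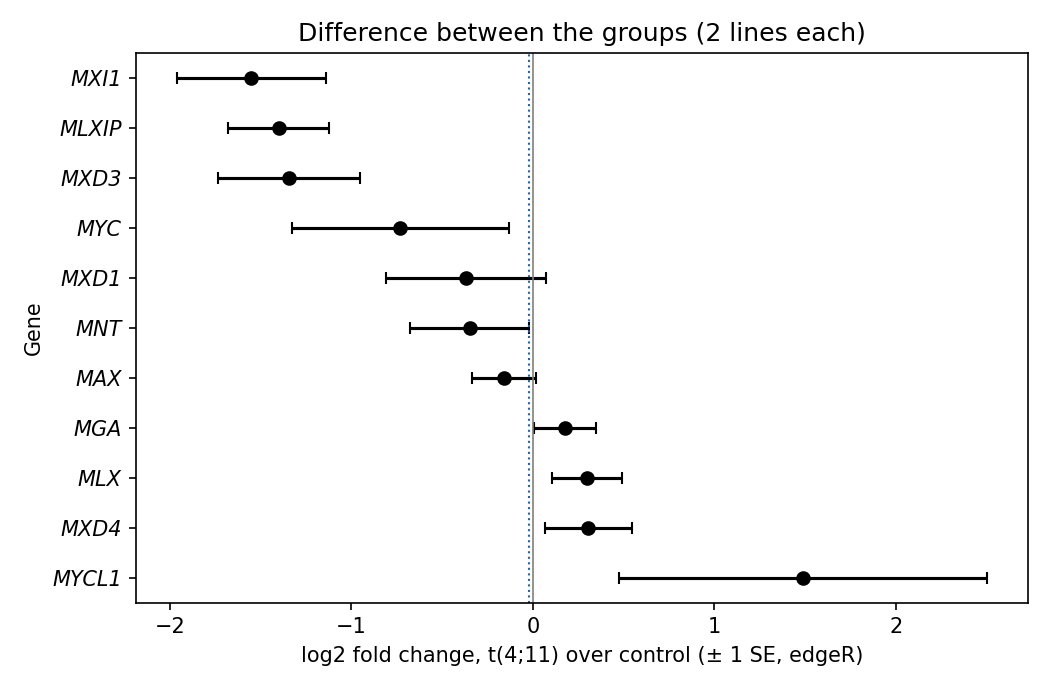
Log2 fold change, t(4;11) over control, of the 9 tested members and of MYCL1 and MLXIP (points, edgeR; bars, 1 SE; dotted line, median of all tested genes). MXI1 at -1.55, MLXIP at -1.40 and MXD3 at -1.35 lie farthest below 0, and the bars of MYC, MXD1 and MNT are wide relative to their values.

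The other repressors did not separate in the same way. MXD1, induced as blood cells differentiate, had 17.6 and 13.2 CPM in the translocated lines versus 27.2 and 15.7 CPM in the controls (on the log2 scale a change of -0.37, SE 0.44, edgeR adjusted p = 0.775). MNT, the broadly expressed repressor, had 38.8 and 36.5 CPM in the translocated lines versus 64.5 and 38.5 CPM in the controls (on the log2 scale a change of -0.35, SE 0.33, edgeR adjusted p = 0.712). In both genes NALM6 alone stood high and the groups overlapped, and without NALM6 the log2 fold changes were 0.078 for MXD1 and 0.068 for MNT. MXD4, a repressor of resting and differentiating cells, went the other way by a small margin, at 33.1 and 29.0 CPM in the translocated lines versus 27.9 and 26.1 CPM in the controls (on the log2 scale a change of 0.31, SE 0.24, edgeR adjusted p = 0.655).

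Added together, reads of MXD1, MXD3, MXD4, MXI1 and MNT made 131 CPM (RS4;11) and 120.4 CPM (SEM), compared with 241 CPM (NALM6) and 202 CPM (REH). The makeup differed even within the controls: MXI1 gave 11.6% of these reads in RS4;11 and 18.3% in SEM, against 31.2% in NALM6 and 20.9% in REH. MXD3 gave 20.1% and 16.3% with t(4;11), against 19.1% in NALM6 and 39.3% in REH. Set against MYC in the same library, the order of lines changed. There were 28.4 repressor reads per 100 MYC reads in RS4;11 and 27.5 in SEM, against 19.9 in NALM6 and 51.1 in REH. The translocated lines therefore lay between the controls.

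**Figure D3:**
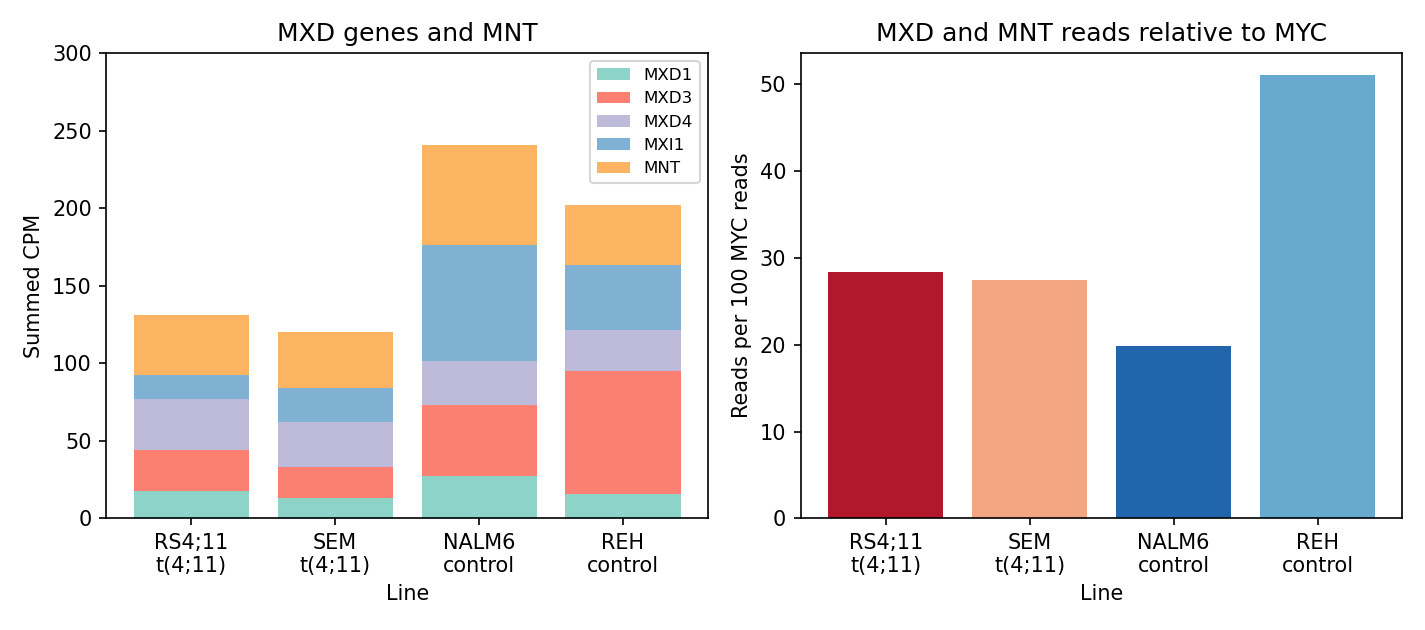
Left, CPM of the repressors MXD1, MXD3, MXD4, MXI1 and MNT stacked for each line; right, their reads per 100 MYC reads (bars, 1 library each, no error). The stacks of the t(4;11) lines reach 131 and 120.4 CPM, below 241 and 202 CPM in the controls, while relative to MYC the highest and the lowest line are both controls.

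MGA and MLX were among the evenest members. MGA had 143 CPM (RS4;11) and 142 CPM (SEM), compared with 148 CPM (NALM6) and 123 CPM (REH) (on the log2 scale a change of 0.18, SE 0.17, edgeR adjusted p = 0.716). The highest and lowest of the 4 lines differed 1.20-fold. MLX had 47.9 and 46.0 CPM in the translocated lines versus 42.4 and 39.7 CPM in the controls (on the log2 scale a change of 0.30, SE 0.19, edgeR adjusted p = 0.597). Both translocated lines lay above both controls, by 1.14-fold in the means. MLX shares its Cuffdiff span with PSMC3IP, which leaves the level of MLX uncertain. PSMC3IP had 18.7 and 20.5 CPM in the translocated lines versus 16.7 and 21.3 CPM in the controls. Across MAX, MGA, MLX and MXD4 the highest line exceeded the lowest by at most 1.32-fold, compared with 3.07-fold for MYC, 4.04-fold for MXD3 and 4.92-fold for MXI1.

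A comparison of levels between genes needs a length-scaled unit, and the authors' deposited Cuffdiff table gives FPKM per group. MYC led at 204 FPKM with t(4;11) and 339 FPKM in controls. MAX followed at 42.2 and 48.4 FPKM. MXD3 had 24.0 and 47.9 FPKM, MLX 20.3 and 16.7 FPKM, and MGA 12.3 and 10.9 FPKM, t(4;11) before controls in each pair. The lower levels were those of MXD4 (8.63 and 7.01 FPKM), MNT (8.10 and 10.4 FPKM), MXI1 (6.08 and 17.6 FPKM) and MXD1 (2.86 and 3.70 FPKM). MYCN was listed at 0 FPKM with t(4;11) and at 0.0988 FPKM in controls. In that unit MXI1 ranked below MNT and MXD4 with t(4;11) and above both in controls. These are the authors' group values, with no spread between lines.

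MLXIP, the partner of MLX that these lines expressed, stood lower in both translocated lines. This sensor of glucose-6-phosphate had 107 CPM (RS4;11) and 71.5 CPM (SEM), compared with 274 CPM (NALM6) and 233 CPM (REH). Every translocated-line value was less than each control value divided by 2, and the groups did not overlap. Means were 89.3 ± 25.2 CPM with t(4;11) and 254 ± 28.7 CPM in controls (SD, n = 2 each), 2.84-fold lower in the translocated lines (on the log2 scale a change of -1.40, SE 0.28, unadjusted p = 0.00887, edgeR adjusted p = 0.320). The authors' deposited DESeq table gave an adjusted p of 0.130 and their Cuffdiff table a q of 0.0658, while DESeq2 on the same counts gave 0.00112. There were 2.24 MLXIP reads per MLX read in RS4;11 and 1.56 in SEM, against 6.46 in NALM6 and 5.88 in REH. MLXIPL, the liver form, had 0 counts in every line.

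Of 4 tested target genes of MLX complexes, 0 had an unadjusted edgeR p under 0.05; 2 were lower in both translocated lines and 0 higher (28.3% and 19.0% of all genes). Their median log2 fold change was -0.69, against -0.02 over all genes tested, and it was 0.0078 without REH. TXNIP, whose CACG cores are printed above, had 86.0 and 114 CPM in the translocated lines versus 117 and 501 CPM in the controls. NALM6 was close to SEM, so the difference rested on REH. The log2 fold change was -1.53 (SE 0.78, edgeR adjusted p = 0.527) and -0.12 without REH. In the authors' deposited tables it was called by Cuffdiff (q = 0.0462) and not by DESeq (adjusted p of 1.0). ARRDC4, the arrestin-family relative of TXNIP, had 6.38 and 6.75 CPM in the translocated lines versus 6.38 and 11.8 CPM in the controls, with REH again the highest.

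Genes that MYC is known to activate were mixed in direction. Of 48 tested genes for ribosome production, nucleotide synthesis and metabolism, 12 were higher and 7 lower in both translocated lines (25.0% and 14.6%, against 19.0% and 28.3% of all genes). Their median log2 fold change was 0.30, against -0.02 over all genes; it was 0.075 without REH and 0.50 without NALM6. By an unadjusted edgeR p under 0.05, 2 were higher and 2 lower (6.18% and 5.87% of all genes). Of these 4, 0 passed edgeR's adjustment, its exact test or either of the authors' deposited tables, while DESeq2 passed all 4, with adjusted p of 2.69e-04 for MCM4, 0.0263 for FASN, 0.0302 for FBL and 0.0356 for TERT. FASN, fatty acid synthase, had 462 and 688 CPM in the translocated lines versus 297 and 339 CPM in the controls (edgeR adjusted p = 0.378). MCM4, a subunit of the replicative helicase, had 901 and 791 CPM in the translocated lines versus 534 and 520.4 CPM in the controls (edgeR adjusted p = 0.344). FBL, the fibrillarin methyltransferase of the nucleolus, had 203 and 195 CPM in the translocated lines versus 297 and 282 CPM in the controls (edgeR adjusted p = 0.405). TERT, the catalytic subunit of telomerase, had 24.2 and 29.1 CPM in the translocated lines versus 54.1 and 142 CPM in the controls (on the log2 scale a change of -1.78, edgeR adjusted p = 0.393; -0.93 without REH). NCL and NPM1, abundant nucleolar proteins, had their highest levels in RS4;11 (2549 CPM) and SEM (2109 CPM), not in NALM6. Many other genes of the list, CAD and SLC7A5 among them, were highest in NALM6. These examples were picked after their values were seen, and genes were not counted by their highest line. EIF4A1 had 0 counts in every line while the authors' deposited table from Cuffdiff listed it at 592 FPKM with t(4;11) and 350 FPKM in controls, and it was not tested.

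Of 14 tested genes that MYC is known to repress, 3 were higher and 0 lower at an unadjusted edgeR p under 0.05 (6.18% and 5.87% of all genes), and 0 passed edgeR's adjustment. By non-overlap, 3 were higher and 3 lower (19.0% and 28.3% of all genes). The median log2 fold change was 0.25, and it was 0.13 without SEM, 0.84 without NALM6 and 1.15 without REH. CDKN1A, the cell cycle inhibitor p21, had 73.4 and 133 CPM in the translocated lines versus 44.3 and 30.9 CPM in the controls (on the log2 scale a change of 1.55, SE 0.40, edgeR adjusted p = 0.360). CDKN1B, the inhibitor p27, had 133 and 123 CPM in the translocated lines versus 79.1 and 71.9 CPM in the controls (on the log2 scale a change of 0.86, SE 0.17, edgeR adjusted p = 0.313). CEBPA, a myeloid transcription factor, had 9.41 and 159 CPM in the translocated lines, against 0 counts in both controls and passed in the Cuffdiff results of the authors' deposited table (q = 0.00418), but not by the authors' DESeq (adjusted p = 0.256) or by edgeR (adjusted p = 0.360). DESeq2 passed all 3, with adjusted p of 0.0145 for CDKN1A, 1.08e-04 for CDKN1B and 3.07e-10 for CEBPA, and the exact test of edgeR passed CEBPA among them (2.43e-05). The lower genes by non-overlap were TXNIP, described above, BTG2 and GADD45A. BTG2, an antiproliferative gene, had 50.9 and 20.5 CPM in the translocated lines versus 100.9 and 57.6 CPM in the controls. GADD45A, a stress-induced growth arrest gene, had 17.5 and 6.54 CPM in the translocated lines versus 43.8 and 21.0 CPM in the controls.

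**Figure D4:**
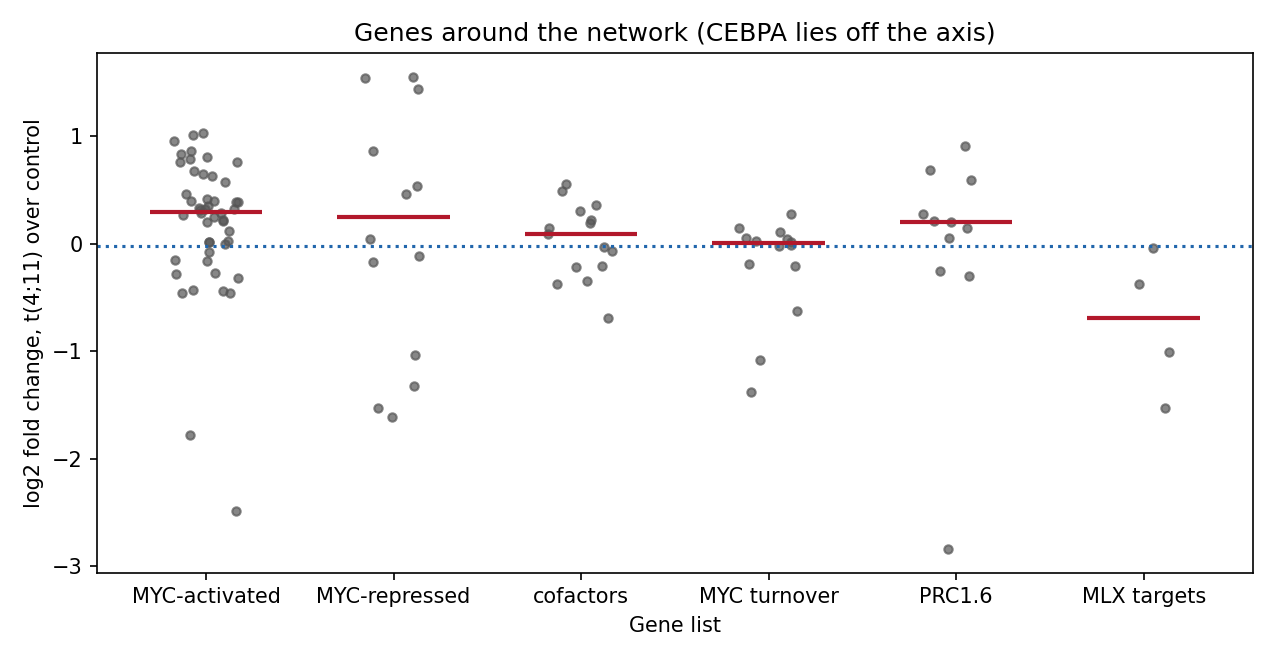
Log2 fold change, t(4;11) over control, of the tested genes in 6 lists around the network, without CEBPA, which lies off the axis (points, edgeR; red bars, list medians; dotted line, median of all genes). The MYC-activated genes centre on 0.30 and spread to both sides of 0, and the lowest PRC1.6 gene is TFDP2 at -2.84.

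Of 15 tested cofactors, 1 was lower and 0 higher at an unadjusted edgeR p under 0.05 (5.87% and 6.18% of all genes), and 0 passed adjustment. That gene, SIN3B, encodes a scaffold through which MXD proteins recruit deacetylases, and had 50.1 and 49.8 CPM in the translocated lines versus 93.5 and 79.8 CPM in the controls (on the log2 scale a change of -0.69, SE 0.19, edgeR adjusted p = 0.374, DESeq2 adjusted p = 0.0154). Its paralog SIN3A had 264 and 220.2 CPM in the translocated lines versus 225 and 198 CPM in the controls. Of 14 turnover genes, 2 were lower and 0 higher by the same unadjusted p, against the same shares of all genes, and 0 passed adjustment. FBXW7, which marks MYC for destruction, had 35.2 and 33.0 CPM in the translocated lines versus 51.8 and 61.0 CPM in the controls (edgeR adjusted p = 0.410, DESeq2 0.0553). USP28, the deubiquitinase that counters FBXW7, had 38.9 and 32.7 CPM in the translocated lines versus 63.0 and 99.9 CPM in the controls (edgeR adjusted p = 0.384, DESeq2 0.0465). The ligase and its opponent thus stood lower in the same lines.

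Among 11 genes of PRC1.6, the complex that holds MGA, TFDP2 was called lower in both of the authors' deposited tables (adjusted p = 9.85e-08 with DESeq, q = 0.00418 with Cuffdiff). TFDP2, a dimer partner of E2F factors, had 90.7 and 51.6 CPM in the translocated lines versus 583 and 516 CPM in the controls (on the log2 scale a change of -2.84, SE 0.37, edgeR adjusted p = 0.295), and both DESeq2 (adjusted p = 3.96e-10) and the exact test of edgeR (1.26e-05) called it. Its paralog TFDP1 had 386 and 184 CPM in the translocated lines versus 165 and 162 CPM in the controls. The list median was 0.20, and -0.05 without SEM; 3 genes were higher and 3 lower in both translocated lines (27.3% each, against 19.0% and 28.3% of all genes).

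The genes whose profile over the 4 lines lay nearest to that of MYC were LNX1, TMEM67 and ANO9, at Euclidean distances of 0.0934, 0.145 and 0.166 in line-centred log2(CPM + 1). LNX1 had 3.08 and 3.06 CPM in the translocated lines versus 10.4 and 2.46 CPM in the controls. TMEM67 had 8.83 and 8.45 CPM in the translocated lines versus 24.7 and 8.47 CPM in the controls. For MYCN, the nearest were TXNDC12, HHIP and FGFBP3 (0.0282, 0.0349 and 0.0510). These were not confined to REH as MYCN was. TXNDC12 had 65.7 and 64.5 CPM in the translocated lines versus 64.1 and 97.3 CPM in the controls. The added 1 CPM leaves MYCN, at most 0.511 CPM, only a small rise in REH. With 4 lines and 13844 genes to choose from, such likeness is a description of these libraries.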

How the data were processed

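Gene expression was measured by RNA-seq in 4 cell lines, grouped by the labels into t(4;11) and control (2 lines each). Tools listed in the submitters' processing notes are HTSeq, Cuffdiff, DESeq, TopHat, TopHat2 2.0.4 and CASAVA 1.8.2, with build hg19. Their settings and the annotation were not given in the sources used. The deposited gene table holds HTSeq counts per line (per the file headers), DESeq normalized counts as a signal scaled by the authors, their fold change as a ratio of control to t(4;11), and p-values. The deposited Cuffdiff table holds FPKM per group, log2 fold changes and q-values by the authors; the fold changes of both tables were converted to t(4;11) over control, and the start of each span was counted from 1.

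CPM divides counts by the column sum. Counts were tested with edgeR 4.0.16 in R 4.3.3 (TMM, filterByExpr, glmQLFit, glmQLFTest, two-sided, Benjamini-Hochberg at 0.05 over 13844 genes, common BCV 0.699, residual df 2). The SE is the size of the log2 fold change divided by the root of F. The test was checked on simulated counts. DESeq2 1.42.0, edgeR's exact test, other scalings, no filter and leaving out each line were alternatives. An exact permutation test of 2 against 2 lines cannot go below p = 0.333, so none is given. Nothing in the labels says how many cultures a library came from. The p-values of edgeR and DESeq2 measure the spread between lines. What spread the deposited p-values and q-values measure is not known here, as their settings were not given. Floors are 3 counts, and intervals and floors cover counting error only.

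Members and gene lists were chosen with earlier results of these data known. Named were all members, MYCL1, MLXIP, MLXIPL, PVT1 and TXNIP. From each list, up to 4 further genes were taken. These had the largest change among those called in a deposited table or at an unadjusted p under 0.05. Where none was called, those with the highest mean CPM were taken. ARRDC4, BTG2, CAD, GADD45A, NCL, NPM1, EIF4A1, SIN3A, SLC7A5, TFDP1, PRELID1 and PSMC3IP were added after their values were seen. Genes of cell type lists were used only to check the lines, and CD22 and CD79B among them were also named after their values were seen. Symbols matched promoter windows for 9605 tested genes.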

Additional observations from a re-analysis of the deposited data

How the results depend on the processing

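Among the members, only MYCN had lines without reads, with 43 counts in REH and 0 in the others. The floors in those lines, 0.0578 to 0.0892 CPM, lie below its 0.511 CPM in REH. The count of genes called by edgeR's quasi-likelihood test was 0 as reported, 0 with RLE factors or library size alone and 0 to 0 when each line was left out. It was 5 with no low-count filter, 441 with edgeR's exact test, 1586 with DESeq2, 288 in the authors' DESeq table and 332 in their Cuffdiff table. The count of members called was 0 in each of these except DESeq2, where it was 2. The count of members whose groups did not overlap was 5, and 6 with TMM or RLE scaling (MGA joined as higher). It was 5 to 9 when each line was left out, with 8 without NALM6 and 9 without REH. Groups of 1 line against 2 overlap less easily, and the share over all genes was not computed for them. The counts with a line left out are therefore not read as a result about the members. In fits without 1 line, the lone line of its group is assumed to vary like the others.

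Leaving out each line in turn reversed 6 log2 fold changes. Without NALM6, MYC became 0.29, MXD1 0.078, MNT 0.068 and the B-lineage marker TCL1A 6.67. Without SEM, PVT1 became 0.082, and without REH, MPO became 1.21. At the other end of their ranges stood MYC at -1.33, MXD1 at -0.72, MNT at -0.68 and TCL1A at -4.53 without REH, PVT1 at -1.17 without RS4;11 and MPO at -6.75 without NALM6. MXI1 stayed between -1.91 and -1.08, MXD3 between -1.69 and -0.90 and MLXIP between -1.73 and -1.12. Library size alone moved the median of all genes to -0.12, against -0.02 with TMM. No paired analysis was possible because the replicate numbers follow listing order only.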
